A study of Rattus norvegicus with 25 samples.

Results

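The misc_RNA transcripts of rat sperm were examined, a class in which Ensembl gathers small structured ncRNAs that belong to none of its other named classes. Members were the misc_RNA transcripts with a raw count of 10 or more in at least 5 of 25 libraries, with transcripts of identical counts taken as 1. Of 269 misc_RNA transcripts 82 met this rule, and 12 of these had the same counts as another, which left 70 members among 2086 distinct sets of counts in the whole ncRNA matrix of 3804 transcripts. Members were thus chosen by their raw counts, and the level of a member is a description and not the result of a test. The groups were F0_SAL (n = 7) and F0_MOR (n = 7), Sprague–Dawley males that self-administered saline or morphine intravenously and whose sperm was taken at the end of self-administration, and F0_ABS-SAL (n = 5) and F0_ABS-MOR (n = 6), males with the same 2 exposures whose sperm was taken after 90 days of abstinence. Sperm came from the cauda epididymis after a double swim-up. All groups shared the catheter surgery and the self-administration sessions, and abstinent males were also older, so age, time since the sessions and any batch of preparation cannot be told apart in a timepoint comparison. The count columns name the timepoints by abbreviations (REG and TO) that the labels do not spell out, and they were matched to these groups by the number of libraries, so every timepoint direction rests on that match. Libraries are named by the letter of their column.

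RNAs that Ensembl places in this class include Y RNAs, which bind the Ro60 protein, 7SK RNA, which holds the elongation factor P-TEFb inactive, the RNA of the signal recognition particle, which brings ribosomes to the endoplasmic reticulum, and vault RNAs of the vault particle. Most are transcribed by RNA polymerase III, and their loci have given rise to many near-identical copies across mammalian genomes. Sperm is transcriptionally quiet, and small-RNA libraries of sperm read mostly short pieces of such longer RNAs rather than whole molecules. The deposited tables pair no member with a name, and 0 member gene identifiers were found in the RefSeq gene table for rat, so no member can be assigned to one of these RNAs. Members are therefore numbered 1 to 70 by their mean level over the 25 libraries, which counts reads and is not corrected for transcript length. Their sequences were not analysed here.

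Total ncRNA counts ran from 1540914 to 6489784 per library, and medians were 3064414 and 2719189 in F0_SAL and F0_MOR against 5483348 and 4159614.5 in F0_ABS-SAL and F0_ABS-MOR. The 3 miRNAs used as sperm markers (miR-34c-5p, miR-34b-5p and miR-449a-5p) summed to between 201200 and 551700 CPM of miRNA counts in every library. Their medians were lower in the abstinent groups, at 463600 in F0_SAL against 373300 in F0_ABS-SAL and 423100 in F0_MOR against 379200 in F0_ABS-MOR. The ranges overlapped, at 361400 to 551700 against 267500 to 425600 after saline and 319300 to 447400 against 201200 to 446500 after morphine. The 5 epithelial miRNAs of the miR-200 family were all detected, at 4999 to 9929 in F0_SAL against 10140 to 18890 in F0_ABS-SAL and at 6930 to 11110 in F0_MOR against 8102 to 20320 in F0_ABS-MOR. The 4 muscle miRNAs (miR-1-3p, miR-133a-3p, miR-143-3p and miR-145-5p) were likewise all detected, at 10660 to 16320 in the nonabstinent libraries and 18070 to 83760 in the abstinent ones. Leukocyte miRNAs (4 of 4 found, 531 to 1211) and erythroid miRNAs (3 of 4 found, 389 to 2167) had overlapping ranges between timepoints. The epithelial and muscle lists were thus higher in the abstinent groups, with overlap only of the epithelial list in the morphine groups. The part of these lists and of the sperm markers in the timepoint results was not tested.

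Before abstinence the 70 members made up a median of 5.43% of ncRNA counts after saline (range 3.92 to 7.72%) and 7.29% after morphine (5.52 to 10.1%). After abstinence they made up 5.44% in saline males (3.42 to 6.16%) and 4.90% in morphine males (4.65 to 7.07%), with transcripts of identical counts taken once in the total. These ranges overlapped in every pair of groups. Relative to the 2 other classes of short structured RNA the timepoints stood apart. The ratio of summed misc_RNA counts to summed counts of snRNA, the RNAs of the spliceosome, was 0.686 to 1.88 in F0_SAL and 0.726 to 2.68 in F0_MOR, against 0.172 to 0.386 in F0_ABS-SAL and 0.238 to 0.359 in F0_ABS-MOR. For snoRNA, which guide the modification of rRNA, the median ratio was 191 in F0_SAL and 254 in F0_MOR against 42.9 in F0_ABS-SAL and 27.6 in F0_ABS-MOR. No abstinent library overlapped a nonabstinent one in either ratio. The share of snRNA itself was 2.09 to 8.39% in nonabstinent and 13.6 to 31.5% in abstinent libraries, while mitochondrial rRNA held a median of 84.0 and 77.9% in F0_SAL and F0_MOR and 72.1 and 70.6% in F0_ABS-SAL and F0_ABS-MOR. With mitochondrial rRNA left out of the total, the mean log2 share of misc_RNA differed by -1.06 between F0_ABS-SAL and F0_SAL, against -0.12 with it in the total.

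**Figure D1:**
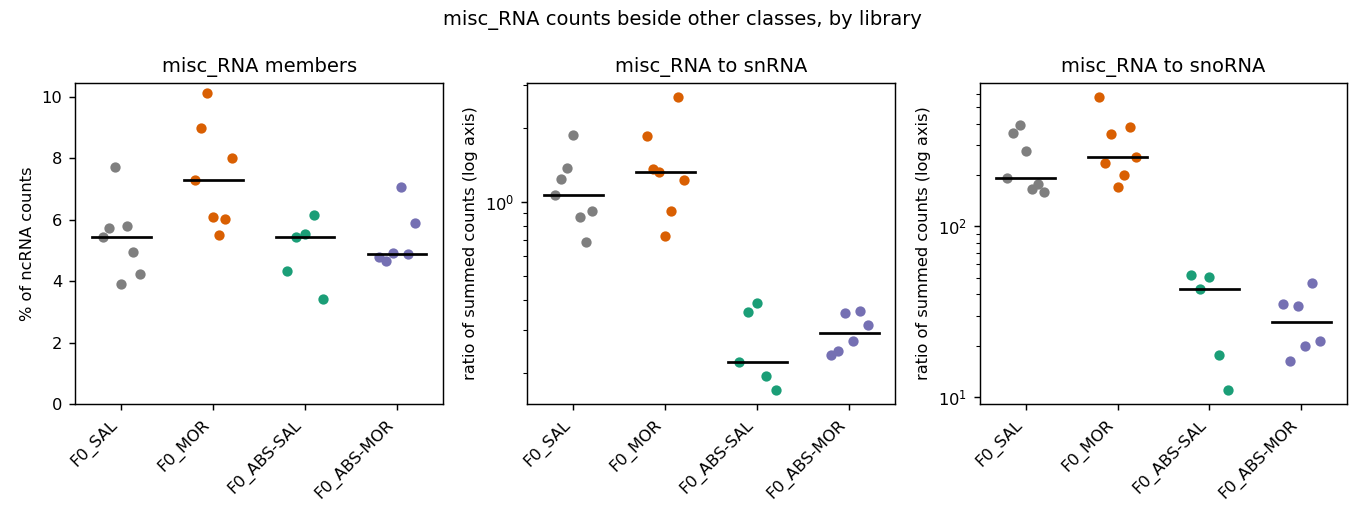
Summed misc_RNA counts in each library as a percentage of ncRNA counts (left, linear axis from 0) and as ratios to summed snRNA and snoRNA counts (middle and right, log axes). Points are libraries, horizontal lines are group medians, and the abstinent groups lie below the nonabstinent groups in both ratios but not in the percentage.

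Many members rose and fell together from library to library. After the group means were removed, members whose log2 counts correlated at 0.9 or more (average linkage over 25 libraries) were taken as a family, which gave 26 families, 11 of 2 or more members (55 members, families A to K) and 15 single members. Because the grouping uses only the spread within groups, it does not depend on how groups differ, but members of a family are not independent of each other. Members 29 to 33 of family F, for example, had the same raw count in libraries V (244), W (88), T (101), A (33) and S (264), and differed in some others. Whether members of a family count the same reads was not tested, so they should not be read as separate transcripts. The most abundant families were A, with 9 members, and B, with 5. Family A held a median of 66.5 and 72.2% of misc_RNA counts in F0_SAL and F0_MOR and 64.1 and 67.1% in F0_ABS-SAL and F0_ABS-MOR, and family B held 20.5 to 24.2%. With only the leading member of each family counted, the whole class came to a median of 1.05 and 1.27% of ncRNA counts in F0_SAL and F0_MOR and 0.995 and 0.979% in F0_ABS-SAL and F0_ABS-MOR, so most of the share in the deposited matrix came from members other than the leads.

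**Figure D2:**
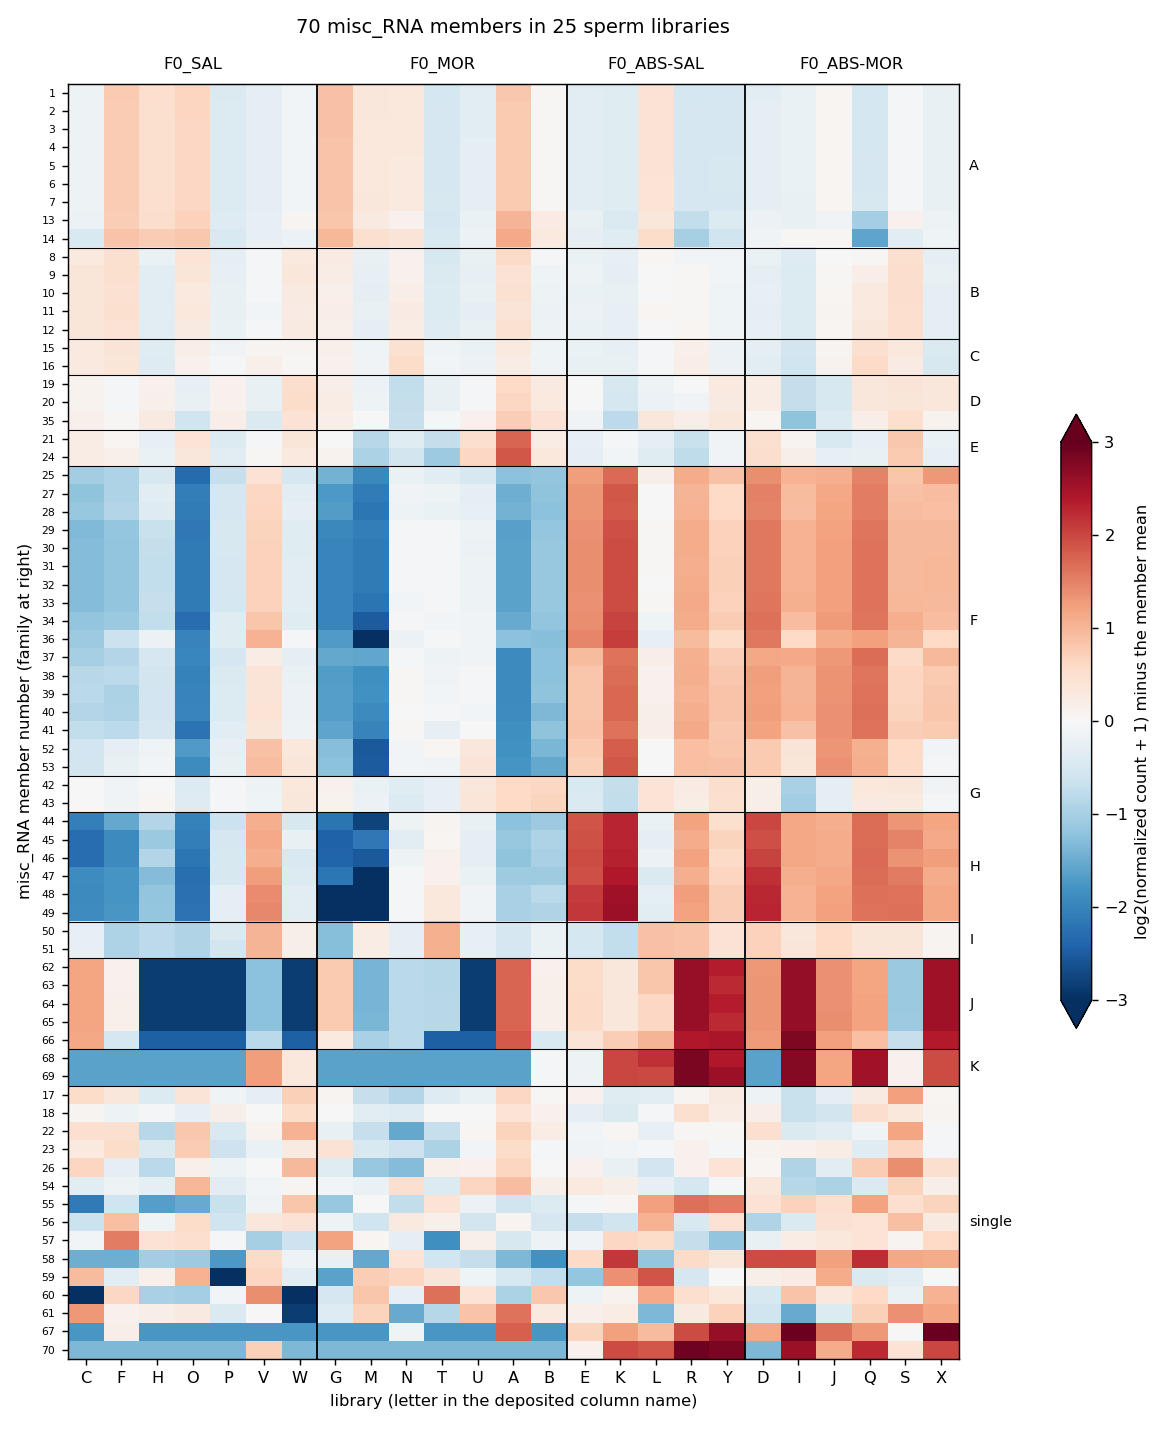
Every member (rows, grouped into families A to K and single members) in every library (columns, by group). Colour is log2(normalized count + 1) minus the mean of that member over the 25 libraries, and families F and H are mostly red in the abstinent libraries apart from library L, and mostly blue or near white in the nonabstinent ones apart from library V.

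Timepoint was compared first, F0_ABS-SAL with F0_SAL and F0_ABS-MOR with F0_MOR, to ask how the class differed between the 2 collection times within each exposure. A call by edgeR needed adjusted p below 0.1 together with a log2 change larger than 0.58 in size, and 68 of the 70 members passed the filter on low counts. Of these, 32 were higher in F0_ABS-SAL than in F0_SAL, and none was lower. Of the 407 distinct sets tested, 25.3% were called higher and 7.13% lower. An unadjusted p under 0.05 by edgeR, in either direction, was reached by 32 of the 68 members and 34.2% of all sets. None of these members had a negative log2 fold change, and the share of all sets with a negative change at that level was not computed. DESeq2 called 9 of 70 lower, against 8.97% of the 680 sets it tested. In F0_ABS-MOR, 32 were higher than in F0_MOR (26.8% of all) and 1 was lower (8.11%). The same 32 members were higher in both comparisons, against 21.1% of all, and none was lower in both, against 5.41% of all. The 32 members made up only 6 of the 24 families tested, namely all members of F (17), H (6), J (5) and K (2) and the single members 55 and 58. Sets of other classes were not grouped into families, so the share of families called cannot be set directly against the share of all sets. The median log2 fold change was 0.51 and 0.44 over the 68 members but -0.07 and 0.23 over the 24 leading members, beside 0.23 and 0.27 over all sets tested. Of the 47 members with 10 or more counts in all 25 libraries, 16 were higher in both comparisons. In a fit of only such transcripts, 16 of these members were called higher in each comparison. Of all 154 sets in that fit, 37% (saline) and 29.2% (morphine) were called higher, a share close to that of the members. Another 11 members reached 10 counts in under 5 of the nonabstinent libraries and so entered through the abstinent groups. Of these, 9 were tested and 8 were called, namely families J and K and member 58. Their way of entry favoured a higher level in the abstinent groups, so no support is drawn from their calls. The other tested one, member 61, was not called. Without these 9, 24 of 59 members and 3 of 20 families (F, H and member 55) were higher in both comparisons. All of these members but member 55 belong to families F and H. The share of all sets under the same restriction was not computed, so these counts cannot be set against 21.1% and are a description. No member entered through the nonabstinent groups alone.

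Family F held 17 of the 32 members that rose. Its leading member 25 (ENSRNOT00000079055.1, gene ENSRNOG00000058555.1) had normalized counts of 39.0 to 267 in F0_SAL (median 120) and 50.9 to 169 in F0_MOR (median 85.5). In F0_ABS-SAL it was at 465.7, 643, 221, 426 and 360 in libraries E, K, L, R and Y, and in F0_ABS-MOR at 352 to 553 (median 454). Every F0_ABS-MOR library was above every F0_MOR library, whereas F0_ABS-SAL and F0_SAL overlapped through library L, which was low, and library V, which was high. Member 25 rose by a log2 fold change of 1.71 (SE 0.36, adjusted p = 0.000347) in the saline comparison and 2.08 (SE 0.35, adjusted p = 1.22e-05) in the morphine comparison, about 3.28-fold and 4.22-fold. All 17 members rose, by 1.06 to 1.73 and by 1.42 to 2.08. Member 37 (ENSRNOT00000084786.1, gene ENSRNOG00000054752.1), also of family F, had mean normalized counts of 67.6 ± 29.2 (SD, n = 7) in F0_SAL, 59.8 ± 32.4 (n = 7) in F0_MOR, 201 ± 72.7 (n = 5) in F0_ABS-SAL and 229 ± 57.7 (n = 6) in F0_ABS-MOR. Its log2 fold change was 1.57 (SE 0.37, adjusted p = 0.00176) and 1.94 (SE 0.36, adjusted p = 8.22e-05). As a share of misc_RNA counts the whole family had a median of 0.707 and 0.548% in F0_SAL and F0_MOR and 3.33 and 2.90% in F0_ABS-SAL and F0_ABS-MOR.

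Family H moved like family F, and both joined into 1 family of 23 when 1 minus r was allowed to reach 0.15. Member 44, its lead, was at 15.4 to 143 in F0_SAL (median 35.7) and 8.77 to 70.7 in F0_MOR (median 30.8). It was at 249, 326, 57.8, 154 and 93.8 in libraries E, K, L, R and Y of F0_ABS-SAL, and at 143 to 269 in F0_ABS-MOR (median 160). As in family F, library V was the high one in F0_SAL and library L the low one in F0_ABS-SAL, and the morphine groups did not overlap. Its log2 fold change was 1.93 (SE 0.50, adjusted p = 0.00379) and 2.25 (SE 0.49, adjusted p = 0.000494), and the 6 members rose by 1.93 to 1.99 and by 2.25 to 2.29. Outside the class, the 3 transcripts whose variation within groups was most like that of member 25, and the 3 most like member 44, were the same rRNA transcripts. Pearson's r over the 25 libraries was 0.653 to 0.761 with member 25 and 0.724 to 0.789 with member 44, given as a description, since all come from the same libraries and depths. Those 3 rRNA transcripts had log2 fold changes of 1.93 to 2.07 in the saline and 2.25 to 2.62 in the morphine comparison.

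Families J and K were scarce, with counts near the limit of detection in the nonabstinent groups. They are members only through the abstinent libraries, so their difference between timepoints is described and its tests are not given. Member 62, which leads family J, had raw counts of 11, 5, 0, 0, 0, 2 and 0 in F0_SAL and 10, 2, 6, 2, 0, 15 and 7 in F0_MOR. After abstinence the counts were 11, 13, 13, 50 and 40 in F0_ABS-SAL and 18, 56, 24, 17, 2 and 45 in F0_ABS-MOR. The groups overlapped in both comparisons, and a count of 0 allows up to 3 counts in that library. Its fitted log2 fold change, given as a description, was 2.69 in the saline comparison and 1.75 in the morphine comparison. Even so, the call in the second was lost under 4 alternatives and without any 1 of the libraries M, N, T, U, B, I, J or X. Family K was almost unseen before abstinence. Member 68 had 6 and 2 counts in libraries V and W of F0_SAL, 2 counts in library B of F0_MOR and 0 in the other nonabstinent libraries, against 2, 18, 14, 24 and 17 counts in F0_ABS-SAL and 0, 25, 8, 18, 2 and 12 in F0_ABS-MOR. With so few nonabstinent counts the fitted fold depends on the prior count and is not given.

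The single members 55 and 58 were the only ones called outside these families. Member 55 had normalized counts of 4.19 to 39.1 in F0_SAL (median 13.0) and 9.12 to 28.6 in F0_MOR (median 15.9). In F0_ABS-SAL it was at 21.0, 22.5, 51.4, 69.7 and 65.2, and in F0_ABS-MOR at 29.2 to 51.1 (median 32.8). The morphine groups did not overlap, though by little, and the saline groups did. Its log2 fold change was 1.65 (SE 0.46, adjusted p = 0.00649) and 1.04 (SE 0.44, adjusted p = 0.0699). The morphine call of member 55 was lost under 6 alternatives of tool, scaling or filter (log2 fold change 0.56 to 0.91, adjusted p = 0.123 to 0.418) and at an adjusted p threshold of 0.05. It was also lost without any 1 of 11 of the 13 libraries (0.47 to 0.95, adjusted p = 0.112 to 0.473), all but T and D. Member 58 reached 10 counts in only 2 nonabstinent libraries against 10 abstinent ones, so its difference too is described without a test. It was at 2.17 to 14.6 in F0_SAL (median 3.90) and 1.99 to 13.0 in F0_MOR (median 5.42), and at 14.9, 44.3, 3.67, 14.6 and 12.5 in F0_ABS-SAL and at 21.8 to 47.4 in F0_ABS-MOR (median 31.6). All F0_ABS-MOR libraries were above all F0_MOR libraries, and libraries L and Y of F0_ABS-SAL lay within the F0_SAL range. Its fitted log2 fold change, given as a description, was 1.69 and 2.43, the first falling to 0.97 without library K of F0_ABS-SAL.

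The most abundant members behaved differently from these. Member 1, the lead of family A, had normalized counts of 11133 to 25638 in F0_SAL (median 14158) and 10386 to 27409 in F0_MOR (median 18644). In F0_ABS-SAL it was at 11975, 11667, 20091, 10393 and 10566, and in F0_ABS-MOR at 10348 to 15590 (median 12890). The abstinent libraries lay in the lower part of the nonabstinent range, apart from library L. The log2 fold change was -0.42 (SE 0.25, adjusted p = 0.212) and -0.49 (SE 0.23, adjusted p = 0.114), which did not pass. Members 2 to 5 of the same family, next in abundance, had values of -0.41 and -0.48, with adjusted p no lower than 0.114. Member 14 (ENSRNOT00000089892.1, gene ENSRNOG00000052180.1), named after its values were seen, was the member of this family that was called lower, by -0.73 (SE 0.30, adjusted p = 0.0623) in F0_ABS-MOR against F0_MOR, from a mean of 7612 ± 2938 (SD, n = 7) to 4588 ± 1429 (n = 6).

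Whether family A was called depended on the scaling, and in the morphine comparison also on the groups in the model. With DESeq2, with its size factors in edgeR, with the total count alone, with a factor computed jointly with the miRNAs, or with log2 total count as a covariate, all 9 members were called lower in both comparisons, at log2 fold changes for member 1 of -0.59 to -0.88 and -0.73 to -0.94. The split of members higher and lower then changed from 32 and 0 to between 29 and 32 higher with 9 lower in the saline comparison, and from 32 and 1 to between 25 and 31 higher with 9 to 13 lower in the morphine comparison. Under these 5 settings 11.9 to 23.8% of all sets were called higher and 6.14 to 14.5% lower in the saline comparison, and 10.4 to 23.3% higher and 10.8 to 20.6% lower in the morphine comparison. How far a shift of all transcripts entered these changes was not tested. The median log2 fold change over all sets tested was 0.23 and 0.27 with TMM. With the other scalings of edgeR it lay between -0.06 and 0.10 and between -0.22 and 0.01. Relative to that median, member 1 was at -0.65 and -0.76 with TMM and at -0.62 to -0.69 and -0.70 to -0.74 with the others. Member 25, treated the same way, was at 1.48 and 1.81 with TMM and at 1.45 to 1.54 and 1.77 to 1.83 with the others. Leaving out F0_SAL library H or W also gave 14 and 16 members called lower in the saline comparison, the leads of families A and B among them (member 1 at -0.70 and -0.95, member 8 at -0.62 and -0.68). How many of all sets were called lower in these fits was not computed, so no general share stands beside these counts. In the morphine comparison member 1 was called lower without any 1 of 10 of the 13 libraries (-0.59 to -0.96).

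Family B was not called in either timepoint comparison. Its lead, member 8, was at 7601 to 13070 in F0_SAL (median 11367) and 6642 to 13919 in F0_MOR (median 8945). It was at 8040, 7847, 9653, 8755 and 8764 in F0_ABS-SAL and at 7167 to 12978 in F0_ABS-MOR (median 8760). The 4 groups overlapped, with log2 fold changes of -0.28 (95% interval -0.69 to 0.14) and -0.06 (-0.45 to 0.33). The remaining families C, D, E, G and I and 8 tested single members (17, 18, 22, 23, 26, 54, 56 and 57) had log2 fold changes from -0.40 to 0.49 (saline) and from -0.36 to 0.56 (morphine), and none was called. Nor were the scarcer single members 59, 60 and 61, at 0.53, 0.64 and -0.01 in the saline comparison and 0.22, -0.06 and 0.05 in the morphine comparison.

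**Figure D3:**
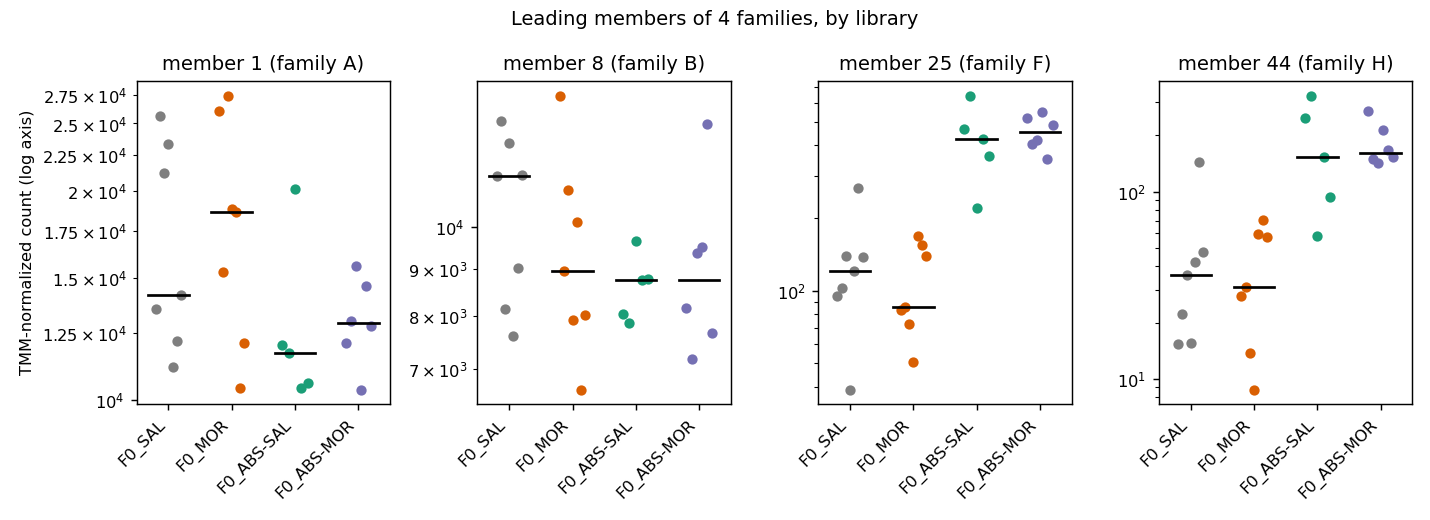
Normalized counts (log axes, each panel with its own range) of the leading members of families A, B, F and H. Points are libraries and horizontal lines are group medians, and members 25 and 44 lie higher in both abstinent groups while member 8 overlaps across all 4 groups.

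Separation between groups was less frequent than calls. None of the 68 members lay wholly above F0_SAL in F0_ABS-SAL, where 5.9% of all sets did. In F0_ABS-MOR, 23 members lay wholly above F0_MOR, against 15.7% of all sets. None of the 68 lay wholly below in either comparison, against 0.983% and 0.737% of all. Members of a family are not independent, and only 4 of the 24 leading members lay wholly above F0_MOR. Member 58, among these 4, entered through the abstinent groups, so no support is drawn from it. Sets of other classes were not grouped into families, so the count of leading members cannot be set directly against 15.7%. Library L of F0_ABS-SAL was the lowest of its group for both leads of families F and H, and library V the highest of F0_SAL. Whether the saline and morphine comparisons differed was tested as the interaction below, since passing in one and not the other does not show a difference.

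**Figure D4:**
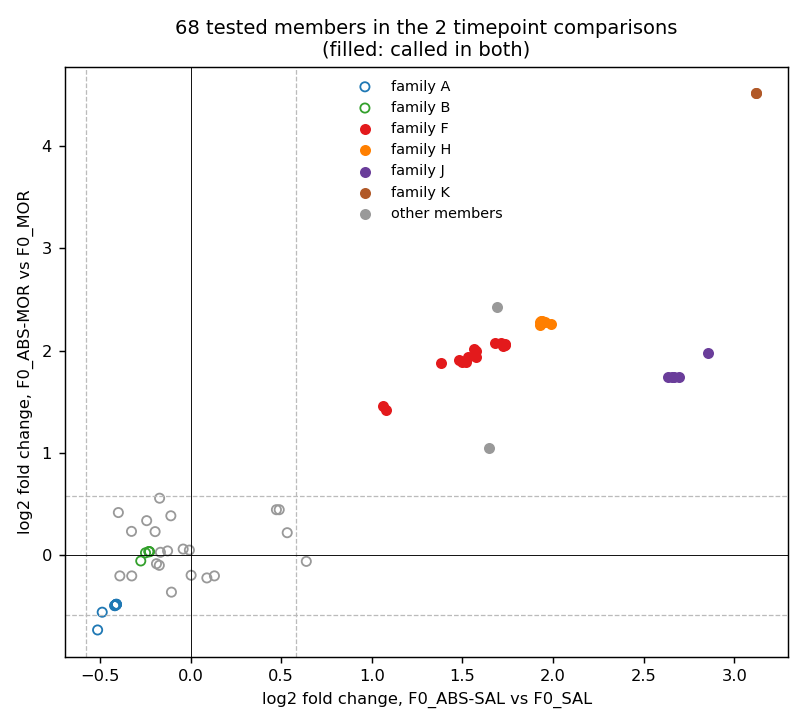
Log2 fold change of the 68 tested members in the saline timepoint comparison (x axis) and the morphine timepoint comparison (y axis), coloured by family. Filled points were called in both, open points were not, dashed lines mark 0.58, and the 32 filled points fall into the tight clusters of families F, H, J and K and 2 single members.

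Other classes in the same fit were counted by the same rule for comparison. Of 35 snRNA sets tested, 25 were higher in the saline comparison and 18 higher with 1 lower in the morphine comparison. For 14 snoRNA sets the counts were 8 higher with 1 lower and 9 higher with 1 lower. Among 73 rRNA sets 12 were higher and 14 lower, then 12 higher and 13 lower. The 121 lincRNA sets gave 15 higher with 10 lower and 22 higher with 10 lower. These counts carry no test of one class against another, and sharing of reads within each class was not examined.

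Morphine was then compared with saline at each timepoint, to ask whether the exposure itself was seen in this class. No member was called in F0_MOR vs F0_SAL, in F0_ABS-MOR vs F0_ABS-SAL or in the interaction of exposure and timepoint, and by edgeR 0 of 407 sets (0%) were called in each. With DESeq2, the paper reported an snoRNA annotated to Snora42/Noc3l, outside this class, as differing in F0_MOR vs F0_SAL. The 0 of 407 sets thus describes the edgeR fit only. By edgeR, no member had an unadjusted p under 0.05 in any of the 3, against 5.9%, 0.246% and 3.19% of all sets. By DESeq2, 1 member of 70 had, member 22 in F0_MOR vs F0_SAL, and none in the other 2, against 2.01%, 0.384% and 1.2% of all sets with a DESeq2 fit. Member 22 also had the smallest p of the members by edgeR in that comparison. Its normalized counts were 126 to 466.3 in F0_SAL (median 316) and 78.4 to 360 in F0_MOR (median 196), with wide overlap. The log2 fold change was -0.53 (95% interval -1.20 to 0.14, adjusted p = 0.83). In the abstinent groups member 58 had the smallest p, with a log2 fold change of 0.83 (95% interval -0.26 to 1.93, adjusted p = 0.992). For the interaction, coded as the nonabstinent minus the abstinent morphine effect, it was member 22 at -0.82 (95% interval -1.83 to 0.19, adjusted p = 0.987).

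How large a morphine effect these data leave room for depended on abundance. For member 1 the log2 fold change was 0.09 (95% interval -0.37 to 0.54) in F0_MOR vs F0_SAL and 0.01 (-0.50 to 0.53) in F0_ABS-MOR vs F0_ABS-SAL. Member 8 was at -0.13 (-0.51 to 0.24) and 0.09 (-0.34 to 0.51). For both members the intervals lie within 0.58 in either direction with TMM, but not under every alternative. With the total count alone, member 1 was at 0.48 (0.04 to 0.92, adjusted p = 0.41) and member 8 at 0.27 (-0.16 to 0.70) in F0_MOR vs F0_SAL. For member 25, which rose with timepoint, the values were -0.25 (-0.92 to 0.41) and 0.11 (-0.64 to 0.85). Member 44 was at -0.27 (-1.23 to 0.69) and 0.05 (-0.996 to 1.10). For member 62 they were 1.04 (-0.68 to 2.75) and 0.09 (-1.50 to 1.68), and the intervals were wider than those of the abundant members. The median over the 68 members was -0.14 and 0.09, beside -0.04 and 0.04 over all sets.

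**Figure D5:**
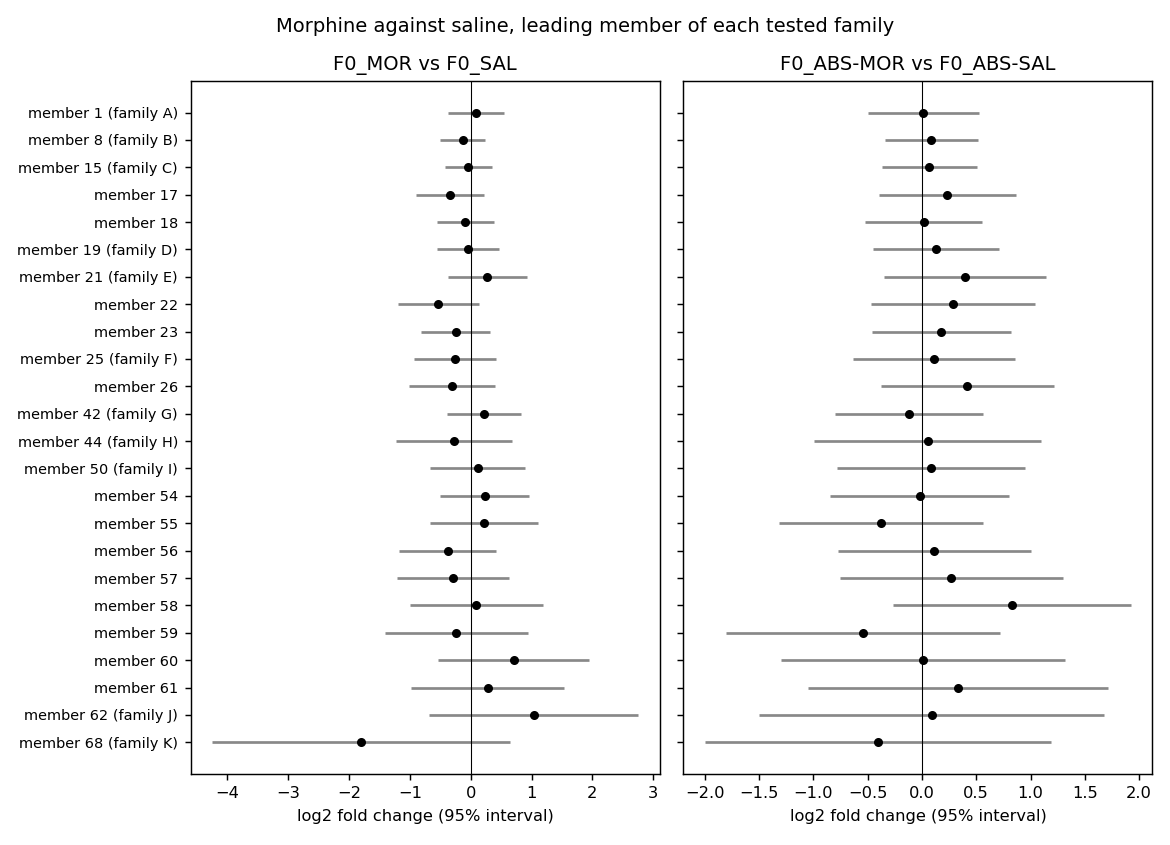
Log2 fold change of morphine against saline (points) with 95% intervals (bars) for the leading member of each of the 24 tested families, nonabstinent on the left and abstinent on the right, on separate axis ranges. Every interval spans 0, and intervals widen from the abundant members at the top to the scarce ones at the bottom.

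Members 67 and 70 were too scarce to be tested. Both reached 10 counts in 6 libraries, the fewest of any member, and all 6 were abstinent. Member 67 had 0, 2, 0, 0, 0, 0 and 0 counts in F0_SAL and 0, 0, 4, 0, 0, 7 and 0 in F0_MOR, against 5, 11, 6, 14 and 22 in F0_ABS-SAL and 7, 32, 13, 8, 2 and 28 in F0_ABS-MOR. Member 70 had 3 counts in 1 F0_SAL library and none in F0_MOR, against 2, 14, 9, 21 and 19 in F0_ABS-SAL and 0, 18, 6, 12, 2 and 10 in F0_ABS-MOR. Just outside the rule, 4 distinct misc_RNA sets reached 10 counts in only 1 or 2 libraries, with highest counts of 10 to 13, and 110 never reached it.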

How the data were processed

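Small RNA of cauda epididymal sperm from 25 rats was sequenced after preparation with the NEBNext small RNA kit. Per the study's methods, the authors trimmed and quality-filtered reads and assigned them with sRNAbench (rn6), first to miRBase and then to Ensembl ncRNA, and deposited raw read counts per transcript without normalization. How reads that match several transcripts were counted was not given in the sources used here, and whether members of a family count the same reads was not tested. The counts behind each library set the precision, and with library letters in place of animal identifiers, p-values measure the spread between libraries. Column abbreviations were matched to timepoints by group size alone.

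All 4 groups entered 1 edgeR 4.0.16 quasi-likelihood model (R 4.3.3) after filterByExpr and TMM scaling, and p-values were Benjamini-Hochberg adjusted over all 482 transcripts tested, which are 407 distinct sets of counts. The authors' thresholds were kept for calls (log2 fold change beyond 0.58 in either direction, adjusted p below 0.1). Normalized counts are counts divided by effective library size and multiplied by the geometric mean of those sizes. Standard errors are the absolute log2 fold change divided by the square root of F, an approximation, and intervals are 95%. The model was tested on simulated data with known changes. DESeq2 1.42.0, limma 3.58.1 (voom with quality weights), other scalings and filters, models of only 2 groups and leaving out each library were alternatives. Named members were the 5 most abundant, the 2 higher and 2 lower in both timepoint comparisons with the smallest product of p-values (no member was lower in both), and the smallest p of each treatment comparison and of the interaction. The leads of families F, H, J, K, A and B, and members 14, 55, 58, 67 and 70, were added after values were seen. The members and lists were chosen with earlier results of these data known, and the families after the data were seen. A count of 0 allows up to 3 counts, which covers counting error only.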

Additional observations from a re-analysis of the deposited data

Results flagged for a closer look

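Of 84 checks of single libraries within the groups of 4 to 10 libraries, 6 found a library far from its group, where about 4.2 would be found by chance. Members 1, 2, 3, 4 and 5 were highest in library L of F0_ABS-SAL, at log2 CPM values of 12.44, 12.41, 12.41, 12.41 and 12.4. The next highest libraries were at 11.69, 11.67, 11.67, 11.67 and 11.66. All 5 belong to family A and count as 1 pattern. Member 68 of family K was lowest in library E of F0_ABS-SAL, at -0.7233 (2 raw counts) against 1.676 in the next library.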

How the results depend on the processing

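No paired analysis was possible because the columns carry no replicate numbers. No result changed direction past a threshold. With at least 10 counts required in every library, 16 of 47 members and 2 of 15 families were called higher in F0_ABS-SAL vs F0_SAL. In F0_ABS-MOR vs F0_MOR, 18 of 47 members (16 higher, 2 lower) and 2 of 15 families were called. Fewer members were tested under this requirement. Of all 154 sets tested under it, 37% were called higher and 1.95% lower in the saline comparison. In the morphine comparison 29.2% of these sets were called higher and 18.2% lower. The share of members called higher was thus close to that of all sets. With only the 2 groups in the model, 3 of 19 families were called in the saline comparison. In the morphine comparison 36 of 64 members were called under this model, 29 higher and 7 lower. Member 1 was among the lower ones, at -0.59 (adjusted p = 0.0776). Of all sets tested in that morphine model, 25.8% were called higher and 12.3% lower. Leaving out 1 library gave 29 to 45 members and 6 to 9 families in the saline comparison, and 26 to 40 members and 3 to 6 families in the morphine comparison, with 26 members and 3 families without library X of F0_ABS-MOR. The share of all sets called in these leave-one-out fits was not computed, so the counts are a description. The difference in mean log2 misc_RNA share moved from -0.12 to -1.06 (saline) and from -0.45 to -0.92 (morphine), and from 0.46 to 0.0093 in F0_MOR vs F0_SAL, when mitochondrial rRNA was left out, and to -0.50 (saline) when identical transcripts were not taken as 1. The cause of these changes was not tested. Members 25 and 44 were called higher in both comparisons in every alternative and with any 1 library left out. Scarce members (families J and K) are limited by depth.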
